A study of Mus musculus with 9 samples.

Results

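The genes described here are the collagen chains, the laminin chains, the integrin subunits and fibronectin, the secreted matrix and the receptors that tie cells to it. Members were every probe set with 1 gene symbol that names a collagen chain (Col), a laminin alpha, beta or gamma chain (Lam), an integrin alpha or beta subunit (Itga, Itgb) or fibronectin (Fn1). The rule took 157 of 45101 probe sets and 77 of 18193 genes. They comprised 42 collagen genes, 10 laminin genes, 16 integrin alpha genes, 8 integrin beta genes and Fn1. A gene was read from its probe set with the highest mean, and was tested where 3 or more of the 9 arrays exceeded a log2 level of 4. This held for 34 members, among 10911 genes tested in all. Of the 43 members not tested, 34 exceeded 4 on no array.

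RNA was profiled on Affymetrix arrays from 1 mouse embryonic stem (ES) cell line, Ainv15, whose cells all carried a doxycycline-inducible Cdx2 with a V5 tag. Cdx2 is a caudal homeobox transcription factor. Each of 3 groups had 3 arrays. The Cdx2 and FGF cultures were embryoid bodies on day 5, given 1 µM all-trans retinoic acid and 0.5 µM of a hedgehog agonist (SAG) from day 2, with a pulse of doxycycline (2 µg/ml, lasting 6 to 8 hours) on day 3, and basic FGF at 100 ng/ml. The motor neuron cultures were day 5 embryoid bodies of the same line with the same retinoic acid and agonist, and without doxycycline or FGF. The ES cells were taken on day 0 after growth with LIF over mitomycin-C-treated fibroblasts, which are mesenchymal cells that make matrix. The protocol also mentions a wash and retinoic acid and agonist at 100 nM each beside FGF, without naming the cultures. The effects of doxycycline, Cdx2 and FGF cannot be told apart. No label says whether a group's arrays came from separate cultures. The p-values therefore reflect array to array spread, possibly technical, and 3 arrays a group limit the precision.

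Fibrillar collagens assemble into the fibres of connective tissue, while type IV collagen and laminin form the sheet-like networks of basement membranes. Laminins are heterotrimers of an alpha, a beta and a gamma chain, and fibronectin is a secreted glycoprotein that cells pull into fibrils. Integrins are pairs of an alpha and a beta subunit that bind these proteins outside the cell and join them, through adaptors, to the actin cytoskeleton. In the early neural tube a laminin-rich basement membrane surrounds the neuroepithelium, and mesoderm beside it is rich in fibronectin.

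Marker genes followed the labels with limits. The ES cell markers exceeded 4 on all ES arrays for 10 of 10 genes and on no array of the other groups. Of 14 neuronal markers tested, 13 were lower in Cdx2 and FGF cultures than in motor neuron cultures, where 8.61% of all tested genes were lower. Of 15 with a probe set, 13 still exceeded 4 on all Cdx2 and FGF arrays, 14 on all motor neuron arrays and 9 on all ES arrays. Their summed level (log2 of the sum) was 13.51 to 13.76 in Cdx2 and FGF cultures. It was 16.68 to 17.07 in motor neuron cultures and 13.59 to 14.06 in ES cells. The highest of these markers in ES cells were Stmn2 (mean 13.07) and Ina (11.63). Relative to ES cells, 10 of the 14 tested rose in Cdx2 and FGF cultures and 2 fell, with a median log2 difference of 2.29. Over all tested genes, 25.4% rose and 27.2% fell in that comparison. The motor neuron factor Mnx1 averaged 6.54 ± 0.30 in Cdx2 and FGF cultures and 10.01 ± 0.64 in motor neuron cultures (SD, n = 3 each). The acetylcholine transporter gene Slc18a3 averaged 3.93 ± 0.23 in Cdx2 and FGF cultures and 11.11 ± 0.40 in motor neuron cultures, and Chat was at the floor on all 9 arrays. ES arrays differed from the others in the controls that compare the 3′ and 5′ ends of a transcript. The 3′ minus 5′ difference for the transferrin receptor control was -1.74 to -1.43 in Cdx2 and FGF cultures, -1.57 to -1.39 in motor neuron cultures and 5.59 to 6.86 in ES cells. That of the Actb control was -0.10 to -0.01, -0.05 to -0.03 and 1.87 to 2.30 in the same order of groups. The 5′ control for 18S ribosomal RNA read 14.89 to 14.98 in Cdx2 and FGF cultures, 15.01 to 15.09 in motor neuron cultures and 2.92 to 4.83 in ES cells. Its 3′ control read 15.32 to 15.42, 15.45 to 15.51 and 5.86 to 6.60 in the same order. Arrays of a group correlated at 0.998 in Cdx2 and FGF cultures, 0.995 to 0.997 in motor neuron cultures and 0.963 to 0.974 in ES cells over all probe sets. The part of these array differences in the results against ES cells was not tested.

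Matrix and integrin genes were mostly higher in Cdx2 and FGF cultures than in motor neuron cultures. Of the 34 tested members, 19 were higher, 2 were lower (Itgb8 and Col22a1) and 13 passed in neither direction (limma, with a Benjamini-Hochberg adjusted p under 0.05 over all genes tested and a log2 difference of 1 or more in size). Over all 10911 genes, 11.2% were called higher and 8.61% lower. The median log2 difference was 2.03 over the tested members and 0.04 over all tested genes. By family, 6 of 7 tested fibrillar collagens, 1 of 5 basement membrane and network collagens, 3 of 6 laminin chains, 5 of 8 integrin alpha subunits, 2 of 4 integrin beta subunits and Fn1 were higher, as was 1 of 3 tested collagens of other kinds. The arrays read the RNA of whole cultures, so fewer cells of a type and less RNA per cell cannot be told apart.

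Against ES cells, motor neuron cultures had 18 of the 34 tested members lower and 6 higher, where 30.7% of all tested genes were lower and 25.9% higher. The members' median log2 difference was -2.55, against -0.08 over all tested genes. Cdx2 and FGF cultures had 13 members higher and 6 lower than ES cells, where 25.4% of all tested genes were higher and 27.2% lower. The median there was -0.11 over the members and -0.004 over all tested genes. These comparisons share arrays, so their values are given side by side. A total of 5 tested members (Itga8, Itgae, Itgb7, Lama3 and Col9a3) exceeded 4 in 1 group alone. Such genes had to differ to be tested. The counts above include them, and they are described below without p-values.

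**Figure D1:**
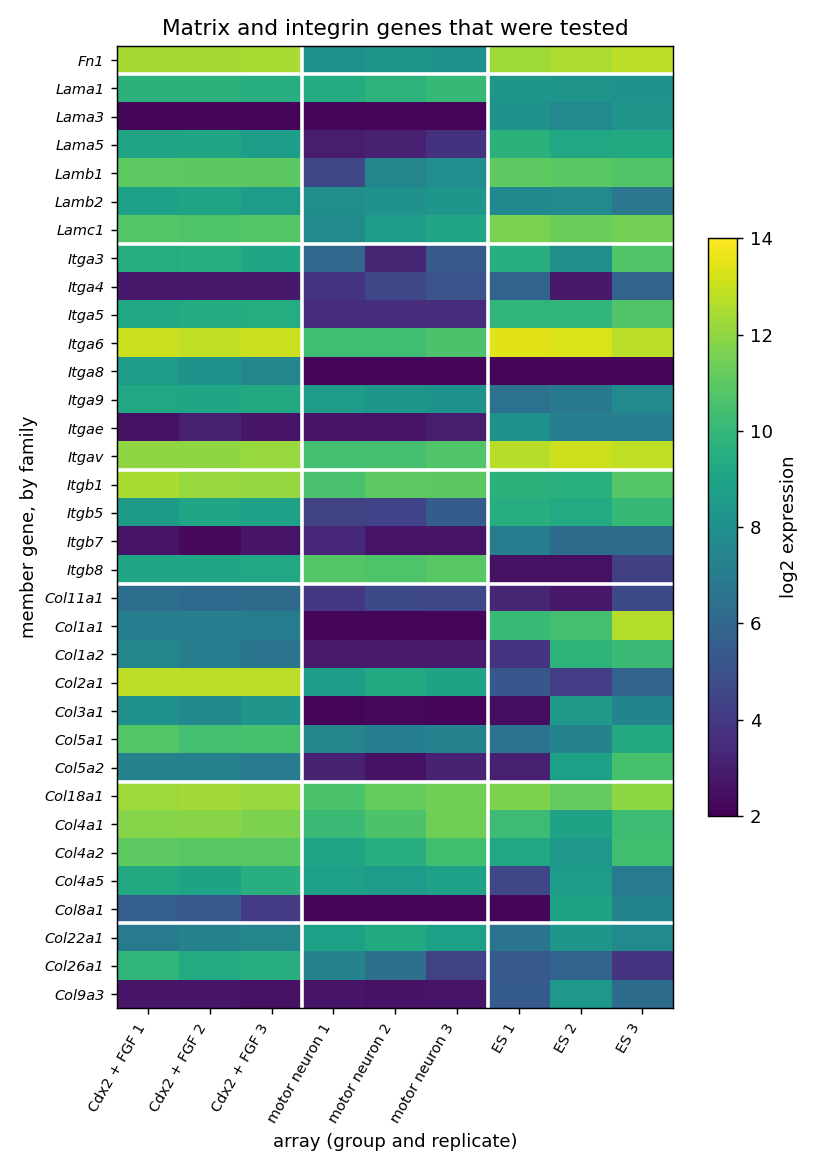
Log2 expression (colour, 2 to 14) of the 34 tested members, in rows by family, on the 9 arrays in columns, with Cdx2 and FGF arrays on the left, motor neuron arrays in the middle and ES arrays on the right; white lines part the families and groups. Fn1 reads 12.38 to 12.46 in Cdx2 and FGF cultures, 8.04 to 8.35 in motor neuron cultures and 12.29 to 12.79 in ES cells.

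**Figure D2:**
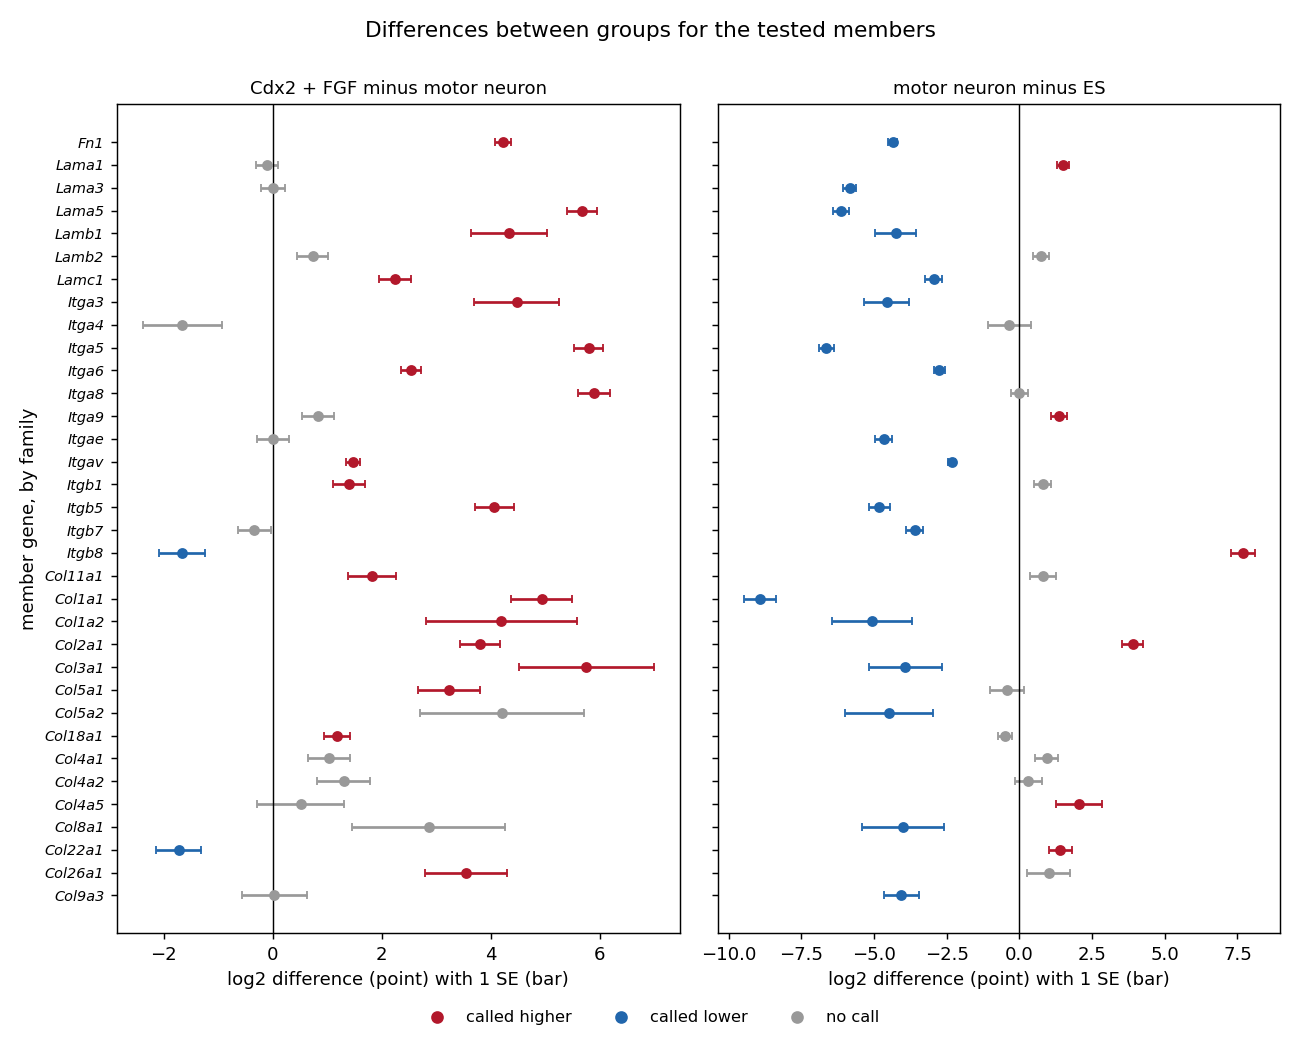
Log2 differences of the 34 tested members with 1 standard error (SE) from the limma fit, for Cdx2 and FGF minus motor neuron cultures on the left and motor neuron cultures minus ES cells on the right; the horizontal scales differ. Red points were called higher (19 on the left, 6 on the right), blue points lower (2 and 18) and grey points were not called.

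Promoter windows are printed for 6 members whose differences between the cultures are described below, to show the sequence next to their start sites. Itga5, Lama5, Lamb1 and Itgb5 were higher in Cdx2 and FGF cultures than in motor neuron cultures and lower in motor neuron cultures than in ES cells, Itga8 exceeded 4 in Cdx2 and FGF cultures alone, and Itgb8 was lower in Cdx2 and FGF cultures. RefSeq (GRCm38.p6) gave a window for 55 of the 77 members and 22 of the 34 tested ones. The windows hold the 250 bases before the annotated start, 5′ to 3′ on the gene's strand: Itga5 (chr15:103366792-103367041, minus strand), Lama5 (chr2:180225860-180226109, minus strand), Lamb1 (chr12:31265043-31265292, plus strand), Itgb5 (chr16:33829415-33829664, plus strand), Itga8 (chr2:12301945-12302194, minus strand) and Itgb8 (chr12:119238277-119238526, minus strand). Capitals mark matches, on either strand, to any of 6 motifs. These were CCAAT for the CCAAT box, GGGCGG for the GC box, TATAAA for the TATA box, TGACGTCA for the cAMP response element, TTTATNG for a Cdx-type homeodomain motif (its letters can overlap those of the TATA box) and AGGTCA repeated after a gap of 5 bases for the retinoic acid direct repeat.
Itga5: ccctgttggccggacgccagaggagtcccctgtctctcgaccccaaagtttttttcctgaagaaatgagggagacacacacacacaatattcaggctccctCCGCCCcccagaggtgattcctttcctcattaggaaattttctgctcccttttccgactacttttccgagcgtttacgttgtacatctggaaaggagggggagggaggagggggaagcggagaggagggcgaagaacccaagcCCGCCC
Lama5: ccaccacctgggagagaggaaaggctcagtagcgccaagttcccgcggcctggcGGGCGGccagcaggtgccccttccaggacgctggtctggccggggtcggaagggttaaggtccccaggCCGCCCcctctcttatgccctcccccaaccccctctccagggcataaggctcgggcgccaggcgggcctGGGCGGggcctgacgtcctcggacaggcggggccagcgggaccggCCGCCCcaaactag
Lamb1: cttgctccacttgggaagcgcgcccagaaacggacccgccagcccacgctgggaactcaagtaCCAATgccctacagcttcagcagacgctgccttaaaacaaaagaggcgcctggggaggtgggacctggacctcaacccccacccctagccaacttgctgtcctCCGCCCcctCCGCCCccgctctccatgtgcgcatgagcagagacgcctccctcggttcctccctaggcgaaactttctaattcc
Itgb5: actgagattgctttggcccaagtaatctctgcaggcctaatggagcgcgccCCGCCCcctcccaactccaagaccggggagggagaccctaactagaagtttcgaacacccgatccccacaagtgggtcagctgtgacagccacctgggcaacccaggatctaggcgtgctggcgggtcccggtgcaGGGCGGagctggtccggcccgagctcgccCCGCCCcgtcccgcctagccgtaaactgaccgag
Itga8: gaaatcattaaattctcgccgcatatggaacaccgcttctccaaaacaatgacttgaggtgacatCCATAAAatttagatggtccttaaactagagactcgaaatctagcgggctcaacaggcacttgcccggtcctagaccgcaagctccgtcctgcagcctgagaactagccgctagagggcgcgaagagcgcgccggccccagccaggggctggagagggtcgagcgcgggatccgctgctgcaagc
Itgb8: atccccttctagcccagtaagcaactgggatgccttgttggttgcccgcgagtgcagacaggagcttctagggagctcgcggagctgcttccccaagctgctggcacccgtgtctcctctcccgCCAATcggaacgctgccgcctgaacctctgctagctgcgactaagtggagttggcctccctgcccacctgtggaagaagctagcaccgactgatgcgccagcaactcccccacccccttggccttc

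The Itga5 window held 2 GC boxes, the Lama5 window 4 and the Itgb5 window 3. The Lamb1 window held 2 GC boxes and 1 CCAAT box, and the Itgb8 window 1 CCAAT box. The Itga8 window held 1 match to the Cdx-type letters, with its first base 185 bases before the start. GC boxes were present in 62.5% of the 24 windows of tested members and in 32.7% of all 32851 windows of the same length. CCAAT boxes were in 37.5% and 33.8%, TATA boxes in 4.17% and 12.4%, and Cdx-type letters in 8.33% and 9.81%. The cAMP response element was in 0 of the members' windows and in 1.55% of all windows, and the direct repeat in 0 and in 0.00913%. The members' windows are those of genes that passed the level filter, while the 32851 windows were taken without that filter. The 2 sets are therefore unlike, and shares for all tested genes were not computed. A match is a description of letters, not a binding site.

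Fibronectin was high in Cdx2 and FGF cultures and in ES cells, and low in motor neuron cultures. The Fn1 probe set read 12.38, 12.38 and 12.46 in Cdx2 and FGF cultures, against 8.04, 8.35 and 8.14 in motor neuron cultures. It read 12.29, 12.53 and 12.79 in ES cells. The Cdx2 and FGF arrays lay within the range of the ES arrays, and both groups lay clear of the motor neuron arrays. Fn1 was 18.8-fold higher in Cdx2 and FGF cultures than in motor neuron cultures (log2 difference 4.23, SE 0.15, limma adjusted p = 1.15e-07). In motor neuron cultures it was 20.6-fold lower than in ES cells (log2 difference -4.36, SE 0.15, limma adjusted p = 1.19e-08). Cdx2 and FGF cultures differed from ES cells by -0.13 (SE 0.15, limma adjusted p = 0.453). A second Fn1 probe set read 5.23, 5.23 and 5.30 in Cdx2 and FGF cultures, against 3.90, 2.58 and 3.51 in motor neuron cultures. It read 7.17, 10.30 and 9.41 in ES cells. Tested by itself, that probe set was lower in motor neuron cultures than in ES cells (-5.64) and was not called between the day 5 cultures (1.93). It was also lower in Cdx2 and FGF cultures than in ES cells (-3.71), and averaging the 2 probe sets gave -1.92 there (limma adjusted p = 0.00192), so the near equality with ES cells held for the brighter probe set alone.

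The subunits of the classical fibronectin receptor, Itga5 and its partner Itgb1, were both higher in Cdx2 and FGF cultures than in motor neuron cultures. Itga5 read 9.14, 9.39 and 9.41 in Cdx2 and FGF cultures, against 3.52 on each motor neuron array. It read 9.84, 9.89 and 10.74 in ES cells, and the motor neuron arrays stood below all others. Itga5 was at least 39.7-fold higher in Cdx2 and FGF cultures than in motor neuron cultures, with values under 4 raised to 4 (log2 difference 5.80, SE 0.27, limma adjusted p = 5.04e-07). In motor neuron cultures it was at least 71.4-fold lower than in ES cells (log2 difference -6.64, limma adjusted p = 3.07e-08). A second Itga5 probe set rose likewise in Cdx2 and FGF cultures over motor neuron cultures (4.30), and was near the floor on the ES arrays as well, at 2.19 on each. It exceeded 4 in Cdx2 and FGF cultures alone and so had to differ to be tested. On that probe set motor neuron cultures and ES cells differed by -0.02 and Cdx2 and FGF cultures exceeded ES cells by 4.29, while the brighter probe set gave -0.85 (limma adjusted p = 0.0189, no call) and passed without ES replicate 1 (-1.0, limma adjusted p = 0.0118), so the Itga5 level of ES cells rests on 1 probe set.

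Itgb1, the beta subunit shared by most matrix-binding integrins, read 12.48, 12.15 and 12.11 in Cdx2 and FGF cultures, against 10.57, 11.00 and 10.98 in motor neuron cultures. It read 9.71, 9.63 and 10.81 in ES cells, where the highest array overlapped the motor neuron range. Itgb1 was 2.63-fold higher in Cdx2 and FGF cultures than in motor neuron cultures (log2 difference 1.40, SE 0.29, limma adjusted p = 0.00584) and 4.59-fold higher than in ES cells (limma adjusted p = 0.000109). Motor neuron cultures exceeded ES cells by 0.80 (limma adjusted p = 0.0328), under the size needed for a call. Without ES replicate 3 that difference was 1.18 and passed (limma adjusted p = 0.000288). Another bright Itgb1 probe set averaged 12.09 in Cdx2 and FGF cultures, 10.80 in motor neuron cultures and 9.57 in ES cells, and was called higher in motor neuron cultures than in ES cells (1.23, limma adjusted p = 0.000898). A dimmer one went the other way against ES cells, averaging 2.30 in Cdx2 and FGF cultures, 2.23 in motor neuron cultures and 4.48 in ES cells. This dimmer probe set exceeded 4 in ES cells alone and so had to differ to be tested. The mean of the gene's probe sets, which includes dim ones, gave 0.63 (limma adjusted p = 0.0405) between the day 5 cultures and 0.41 (limma adjusted p = 0.0996) for Cdx2 and FGF cultures against ES cells, and neither reached a call.

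Integrins of the alpha V group, which recognise fibronectin, vitronectin and latent TGF-beta, moved by subunit. Itgav read 11.99, 11.99 and 12.13 in Cdx2 and FGF cultures, against 10.41, 10.48 and 10.76 in motor neuron cultures, and was 2.80-fold higher (log2 difference 1.48, SE 0.13, limma adjusted p = 2.88e-05). ES cells read 12.72, 13.07 and 12.86, above both kinds of culture. On this probe set Itgav was 5.04-fold lower in motor neuron cultures than in ES cells (log2 difference -2.33, limma adjusted p = 2.4e-07). A pair of other Itgav probe sets were near the floor in ES cells, at 2.51 to 2.78 and 2.45 to 3.02. They were called higher in motor neuron cultures than in ES cells (5.57 and 4.20), opposite to the brightest probe set, so the direction of Itgav against ES cells depends on the probe set. These 3 probe sets, the ones tested, gave Itgav higher in Cdx2 and FGF cultures than in motor neuron cultures, by 1.48, 2.25 and 3.14. A further Itgav probe set read 2.17 on every day 5 array and 7.68, 2.17 and 7.64 in ES cells. The remaining one exceeded 4 on no array.

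The beta partners Itgb5 and Itgb8 went opposite ways. Itgb5, the subunit of a vitronectin receptor, read 8.56, 9.10 and 8.88 in Cdx2 and FGF cultures, against 4.36, 4.43 and 5.56 in motor neuron cultures. ES cells read 9.49, 9.34 and 10.02, and the motor neuron arrays lay below all others. Itgb5 was 16.7-fold higher in Cdx2 and FGF cultures than in motor neuron cultures (log2 difference 4.07, SE 0.36, limma adjusted p = 2.66e-05). It was 28.5-fold lower in motor neuron cultures than in ES cells (log2 difference -4.83, limma adjusted p = 1.46e-06). All 4 Itgb5 probe sets gave these directions, with 3.76 to 4.88 between the day 5 cultures and -5.01 to -3.46 between motor neuron cultures and ES cells. Itgb8, whose pairing with alpha V releases active TGF-beta, read 9.12, 9.04 and 9.21 in Cdx2 and FGF cultures, against 10.80, 10.71 and 10.89 in motor neuron cultures. It read 2.54, 2.54 and 4.27 in ES cells, far below both kinds of culture. Itgb8 was 3.19-fold lower in Cdx2 and FGF cultures than in motor neuron cultures (log2 difference -1.67, SE 0.42, limma adjusted p = 0.0141). That call was lost without Cdx2 and FGF replicate 2 (-1.63, limma adjusted p = 0.0527). Motor neuron cultures exceeded ES cells at least 105-fold (log2 difference 7.68, limma adjusted p = 2.01e-07), and Cdx2 and FGF cultures exceeded them at least 32.8-fold.

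Itga8, an Itgb1 partner that binds nephronectin in the mouse kidney, read 8.63, 8.10 and 7.46 in Cdx2 and FGF cultures and 2.17, the floor, on every motor neuron and ES array. The gene was at least 16.7-fold higher in Cdx2 and FGF cultures than in either other group, given without a p because these arrays alone brought the gene into the test. A second Itga8 probe set read 6.56, 6.47 and 4.87 in Cdx2 and FGF cultures and no more than 2.85 elsewhere. Both Itga8 probe sets thus exceeded 4 in Cdx2 and FGF cultures and in no other group.

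**Figure D3:**
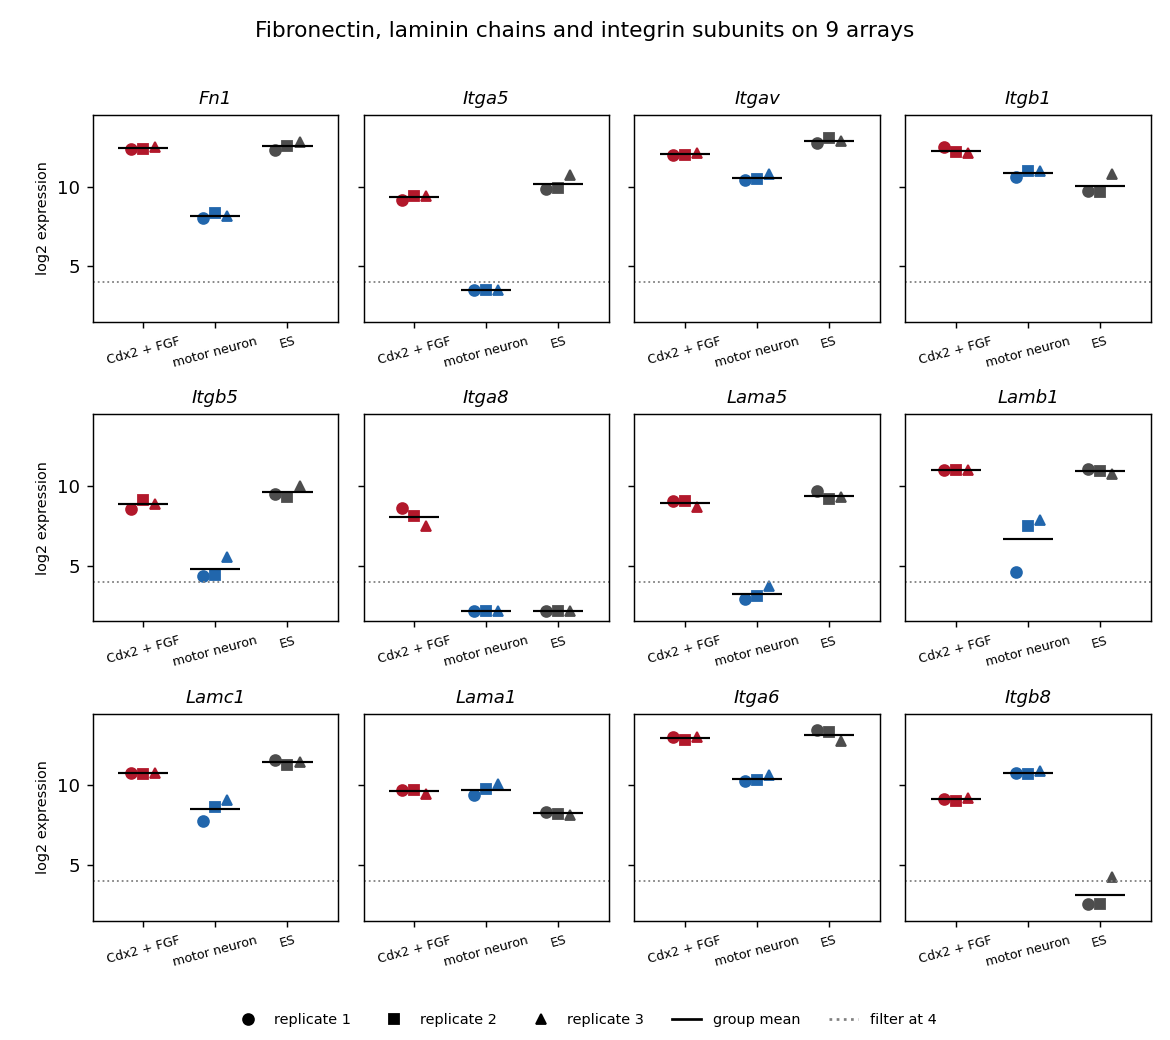
Log2 expression of Fn1, 7 integrin subunits and 4 laminin chains on each array (circle, square and triangle for replicates 1 to 3), with Cdx2 and FGF cultures on the left of each panel, motor neuron cultures in the middle and ES cells on the right; bars are group means and the dotted line is the filter at 4. Fn1, Itga5, Itgb5, Lama5, Lamb1, Lamc1 and Itga6 show a dip in motor neuron cultures, Itga8 is above 4 in Cdx2 and FGF cultures alone, and Itgb8 is highest in motor neuron cultures.

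Among the laminin chains, Lama5, Lamb1 and Lamc1, which join into 1 of the main basement membrane laminins, were higher in Cdx2 and FGF cultures than in motor neuron cultures. Lama5 read 9.03, 9.08 and 8.66 in Cdx2 and FGF cultures, against 2.90, 3.10 and 3.74 in motor neuron cultures, all of them under 4. ES cells read 9.69, 9.21 and 9.28. Lama5 was at least 30.4-fold higher in Cdx2 and FGF cultures than in motor neuron cultures (log2 difference 5.68, SE 0.28, limma adjusted p = 7.19e-07). Motor neuron cultures were at least 42.0-fold lower than ES cells (log2 difference -6.15, limma adjusted p = 6.62e-08). A second Lama5 probe set gave 5.20 and -6.05 for the same differences. Cdx2 and FGF cultures and ES cells differed by -0.47 (limma adjusted p = 0.166).

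Lamb1 read 11.02, 10.98 and 10.98 in Cdx2 and FGF cultures, against 4.59, 7.48 and 7.89 in motor neuron cultures. ES cells read 11.04, 10.93 and 10.76. The motor neuron arrays were below all others and were spread widely, with replicate 1 the lowest. Lamb1 was 20.3-fold higher in Cdx2 and FGF cultures than in motor neuron cultures (log2 difference 4.34, SE 0.70, limma adjusted p = 0.00129), and 19.1-fold lower in motor neuron cultures than in ES cells (log2 difference -4.26, limma adjusted p = 0.000371). Without motor neuron replicate 1 these differences were 3.31 and -3.22, and without replicate 3 they were 4.96 and -4.87. A dimmer Lamb1 probe set, unlike the brightest, was called higher in Cdx2 and FGF cultures than in ES cells (1.17).

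Lamc1, the gamma chain shared by most laminins, read 10.77, 10.71 and 10.78 in Cdx2 and FGF cultures, against 7.75, 8.67 and 9.11 in motor neuron cultures. It was 4.74-fold higher (log2 difference 2.24, SE 0.29, limma adjusted p = 0.000364). ES cells read 11.58, 11.31 and 11.50, and motor neuron cultures were 7.75-fold lower than these (log2 difference -2.95, limma adjusted p = 1.15e-05). The second Lamc1 probe set gave 2.29 between the day 5 cultures and 0.01 between motor neuron cultures and ES cells, so the dip below ES cells rests on 1 probe set. Lama1, the alpha chain of the first laminin of the embryo, read 9.72, 9.69 and 9.46 in Cdx2 and FGF cultures, against 9.38, 9.75 and 10.06 in motor neuron cultures. These ranges overlapped and the difference was -0.10 (SE 0.20, limma adjusted p = 0.773). ES cells read 8.34, 8.22 and 8.17, below all 6 day 5 arrays. Lama1 was 2.80-fold higher in motor neuron cultures than in ES cells (limma adjusted p = 0.000108) and 2.61-fold higher in Cdx2 and FGF cultures than in ES cells (limma adjusted p = 0.000201).

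The other tested laminin chains were Lamb2 and Lama3. Lamb2, a beta chain of the basement membrane at synapses and in the kidney, read 8.85, 8.99 and 8.63 in Cdx2 and FGF cultures, 7.93, 8.06 and 8.31 in motor neuron cultures, with 7.60, 7.74 and 6.77 in ES cells. It was 2.74-fold higher in Cdx2 and FGF cultures than in ES cells (limma adjusted p = 0.0012), and the steps to and from motor neuron cultures (0.73 each) were not called. Lama3, an epithelial chain, was at 2.17 on all 6 day 5 arrays and at 8.14, 7.64 and 8.22 in ES cells, at least 16.0-fold lower in each kind of culture. A second Lama3 probe set was at 2.17 on all 9 arrays, so the Lama3 level of ES cells rests on 1 probe set. The remaining 4 laminin genes, among them Lama2 and Lama4, exceeded 4 on no array.

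The laminin-binding alpha subunits Itga6 and Itga3 were higher in Cdx2 and FGF cultures than in motor neuron cultures on each tested probe set. Itga6 read 13.04, 12.83 and 13.02 in Cdx2 and FGF cultures, against 10.30, 10.31 and 10.67 in motor neuron cultures. ES cells read 13.45, 13.35 and 12.76, a range that overlapped the Cdx2 and FGF cultures and not the motor neuron cultures. Itga6 was 5.81-fold higher in Cdx2 and FGF cultures than in motor neuron cultures (log2 difference 2.54, SE 0.19, limma adjusted p = 8.51e-06) and 6.78-fold lower in motor neuron cultures than in ES cells (log2 difference -2.76, limma adjusted p = 7.81e-07). Its second probe set gave 2.81 between the day 5 cultures and -0.54 between motor neuron cultures and ES cells, the second of which was not called. That probe set read 12.84, 12.57 and 12.69 in Cdx2 and FGF cultures, against 10.54, 10.54 and 10.24 in ES cells, and was called higher in Cdx2 and FGF cultures (2.26, limma adjusted p = 8.08e-07), where the brightest probe set gave -0.22 and no call. Itga3 read 9.45, 9.50 and 9.10 in Cdx2 and FGF cultures, against 5.98, 3.25 and 5.37 in motor neuron cultures. ES cells read 9.58, 7.98 and 10.74, above the motor neuron arrays and on both sides of the Cdx2 and FGF arrays. Itga3 was at least 18.8-fold higher in Cdx2 and FGF cultures than in motor neuron cultures (log2 difference 4.48, SE 0.78, limma adjusted p = 0.00204). Motor neuron cultures were at least 20.0-fold lower than ES cells (log2 difference -4.57, limma adjusted p = 0.000483). Without motor neuron replicate 2, the lowest array, the Itga3 differences were 3.68 and -3.76. Without ES replicate 2 or 3 the second of them was -5.30 or -3.91. Another Itga3 probe set put motor neuron cultures and ES cells 0.21 apart, with no call, and was called higher in Cdx2 and FGF cultures than in ES cells (3.77, limma adjusted p = 0.000107), where the brightest gave -0.09.

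Integrin subunits best known from lymphocytes were found in ES cells. Itgae and Itgb7, which pair to bind E-cadherin on lymphocytes in mucosa, were under 4 on every day 5 array. Itgae read 8.02, 7.13 and 7.18 in ES cells and was at least 10.9-fold lower in each kind of day 5 culture. A second Itgae probe set read 3.91, 3.72 and 2.92 in ES cells and 2.30 on each day 5 array, under 4 throughout. Itgb7 read 7.03, 6.22 and 6.24 in ES cells and was at least 5.64-fold lower in each kind of day 5 culture. Itgb2, the beta subunit of leukocytes, exceeded 4 on no array. Of 14 blood and macrophage markers, 2 exceeded 4 on all Cdx2 and FGF arrays, 1 on all motor neuron arrays and 3 on all ES arrays. Their summed level was 7.04 to 7.64 in Cdx2 and FGF cultures, 9.16 to 10.37 in motor neuron cultures and 12.72 to 13.64 in ES cells. Of 3 tested, 3 were lower in Cdx2 and FGF cultures than in ES cells, and 2 were lower in motor neuron cultures than in ES cells. The shares lower over all tested genes were 27.2% and 30.7%. In ES cells Laptm5 averaged 12.83, Coro1a 9.79 and Cd68 8.62. The leukocyte marker Ptprc was at 2.17 on all arrays but ES replicate 3, at 2.31, and the macrophage marker Csf1r was at 2.17 on all 9. The part of such cells in the Itgae and Itgb7 levels was not tested.

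Itga9, a receptor subunit for tenascin-C, read 9.18, 9.12 and 9.27 in Cdx2 and FGF cultures, 8.61, 8.29 and 8.17 in motor neuron cultures, with 6.49, 6.86 and 7.63 in ES cells. The groups did not overlap. It was higher in Cdx2 and FGF cultures (4.58-fold, limma adjusted p = 0.000108) and in motor neuron cultures (2.58-fold, limma adjusted p = 0.0021) than in ES cells. The step between the day 5 cultures was 0.83 (limma adjusted p = 0.0578). Another Itga9 probe set put the rise over ES cells far higher, at 6.19 in Cdx2 and FGF cultures and 5.76 in motor neuron cultures. Itga4, which binds fibronectin and VCAM1, was under 4 on each Cdx2 and FGF array. It was not called between the day 5 cultures on its brightest probe set (-1.66, SE 0.73, limma adjusted p = 0.117), and passed there without ES replicate 2 (limma adjusted p = 0.00334). It was called lower in Cdx2 and FGF cultures than in ES cells (-2.01, limma adjusted p = 0.0324), a call lost with no filter (limma adjusted p = 0.103) and without any 1 of ES replicates 1 and 3 or of the Cdx2 and FGF arrays (limma adjusted p = 0.0723 to 0.117). Without ES replicate 2 the difference was -3.02, and Itga4 was then also called lower in motor neuron cultures than in ES cells (-1.36, limma adjusted p = 0.00596). Another Itga4 probe set read 2.22, 2.21 and 2.27 in Cdx2 and FGF cultures, 5.75, 5.70 and 5.52 in motor neuron cultures, with 2.60, 3.56 and 2.98 in ES cells. That probe set exceeded 4 in motor neuron cultures alone and so had to differ to be tested, and its differences are given without a p. They were -3.42 for Cdx2 and FGF cultures minus motor neuron cultures and 2.61 for motor neuron cultures minus ES cells.

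**Figure D4:**
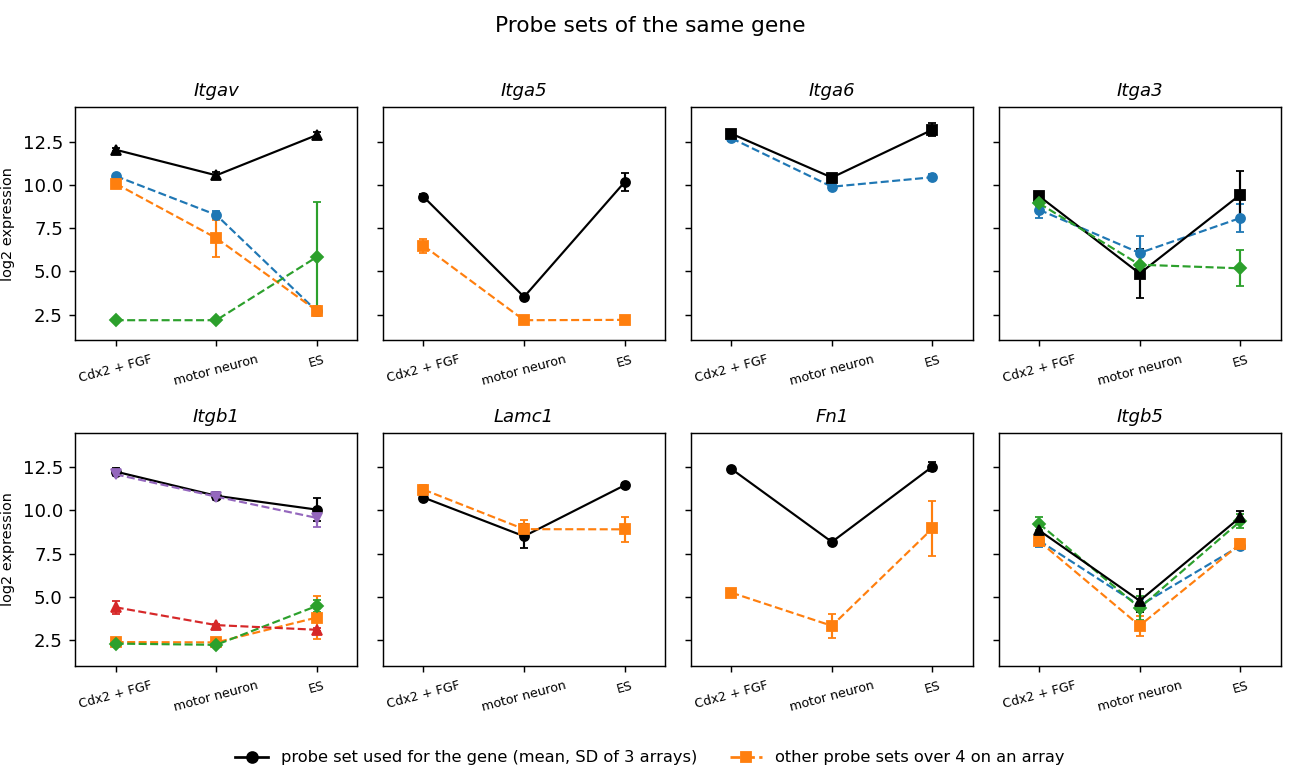
Mean log2 expression (vertical axis) with SD of 3 arrays for each probe set over 4 on an array, for 8 genes, with Cdx2 and FGF cultures on the left of each panel, motor neuron cultures in the middle and ES cells on the right; the black line is the probe set that stands for the gene and dashed lines are its other probe sets. For Itgav and Itga5 the lines part at the ES cells, where other probe sets average 2.69 and 2.72 for Itgav and 2.19 for Itga5. A further Itgav probe set, at 2.17 on every day 5 array, averages 5.83 in ES cells. The 4 lines of Itgb5 keep together.

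Of the 21 tested members with several tested probe sets, calls differed among probe sets for 6 between the day 5 cultures, for 9 between motor neuron cultures and ES cells and for 10 in Cdx2 and FGF cultures against ES cells. Opposite calls came from Itgav and Itgb1 in motor neuron cultures against ES cells and from Itgb1 in Cdx2 and FGF cultures against ES cells. The dimmer Itgb1 probe set behind its opposite calls exceeded 4 in ES cells alone and so had to differ to be tested. Probe sets of Itga4 and Itga5 that exceeded 4 in 1 group alone, given above, are also among the differing calls. Between the day 5 cultures 0 members had opposite calls. The ES arrays are those with the wide 3′ to 5′ differences given above, whose part in the probe set differences was not tested.

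Fibrillar collagens were higher in Cdx2 and FGF cultures than in motor neuron cultures in 6 of 7 tested genes, with 0 lower. Col2a1, the collagen of cartilage and of the embryonic notochord, read 12.82, 12.79 and 12.77 in Cdx2 and FGF cultures, 8.74, 9.29 and 8.93 in motor neuron cultures, with 5.25, 4.20 and 5.84 in ES cells. The 3 groups were clear of each other and in that order. Col2a1 was 13.9-fold higher in Cdx2 and FGF cultures than in motor neuron cultures (log2 difference 3.80, SE 0.37, limma adjusted p = 5.03e-05). It was 14.8-fold higher in motor neuron cultures than in ES cells (limma adjusted p = 7.7e-06), and 206-fold higher in Cdx2 and FGF cultures than in ES cells (limma adjusted p = 1.03e-07).

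Col1a1, the main chain of type I collagen, read 7.11, 7.11 and 7.09 in Cdx2 and FGF cultures, against 2.17 on each motor neuron array and 10.15, 10.45 and 12.68 in ES cells. Col1a1 was at least 8.60-fold higher in Cdx2 and FGF cultures than in motor neuron cultures (log2 difference 4.94, SE 0.56, limma adjusted p = 0.000148). Cdx2 and FGF cultures were 15.9-fold lower than ES cells (log2 difference -3.99, limma adjusted p = 0.000148), a difference of -3.19 without ES replicate 3. Motor neuron cultures, at the floor, were at least 136-fold lower than ES cells (limma adjusted p = 4.96e-07). The fitted difference of -8.93 was -8.13 without that array and -7.09 with values under 4 raised to 4. Col5a1, a chain that starts fibrils, read 10.77, 10.41 and 10.49 in Cdx2 and FGF cultures, 7.46, 7.16 and 7.34 in motor neuron cultures, with 6.56, 7.37 and 9.31 in ES cells. The ES arrays spread across the motor neuron range and stayed below the Cdx2 and FGF arrays. Col5a1 was 9.40-fold higher in Cdx2 and FGF cultures than in motor neuron cultures (log2 difference 3.23, SE 0.57, limma adjusted p = 0.00212) and 7.00-fold higher than in ES cells (limma adjusted p = 0.00155). Without ES replicate 1 or 3 the difference from ES cells was 2.21 or 3.59.

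ES replicate 1 parted from ES replicates 2 and 3 in the next collagens. Col3a1, which forms fine fibres with type I collagen, read 8.03, 7.58 and 8.25 in Cdx2 and FGF cultures, against 2.17, 2.25 and 2.17 in motor neuron cultures. ES cells read 2.46, 8.47 and 7.41. Col3a1 was at least 15.5-fold higher in Cdx2 and FGF cultures than in motor neuron cultures (log2 difference 5.76, SE 1.24, limma adjusted p = 0.00652). It was called at least 6.19-fold lower in motor neuron cultures than in ES cells (fitted difference -3.92, limma adjusted p = 0.0168; -2.63 with values under 4 raised to 4). That call was lost with no filter on low values (limma adjusted p = 0.0699), and without ES replicate 2 (-2.74, limma adjusted p = 0.0631) or ES replicate 3 (-3.27, limma adjusted p = 0.0636). The difference was -5.75 without ES replicate 1. Col1a2, the other type I chain, read 7.51, 7.05 and 6.64 in Cdx2 and FGF cultures, 2.87 on each motor neuron array and 3.81, 9.79 and 10.17 in ES cells. Col1a2 was at least 8.37-fold higher in Cdx2 and FGF cultures than in motor neuron cultures (log2 difference 4.20, SE 1.38, limma adjusted p = 0.0437). That call was lost without any 1 of the 6 day 5 arrays (limma adjusted p = 0.0904 to 0.125). It was also lost with values under 4 raised to 4 (3.06, limma adjusted p = 0.118), with the mean of the probe sets (2.15, limma adjusted p = 0.111), with no filter (limma adjusted p = 0.149), with another quantile normalization (3.83, limma adjusted p = 0.0645) and with no intensity trend (limma adjusted p = 0.0597). In motor neuron cultures Col1a2 was at least 15.9-fold lower than in ES cells (limma adjusted p = 0.00795). The fitted difference of -5.06 was -3.99 with values under 4 raised to 4, -7.12 without ES replicate 1, -4.12 without replicate 2 and -3.93 without replicate 3. Against ES cells, Cdx2 and FGF cultures had calls for Col1a2 without ES replicate 1 (-2.92, limma adjusted p = 4.17e-05) and for Col3a1 without ES replicate 2 (3.02, limma adjusted p = 0.0467) alone among the arrays left out.

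Col5a2 read 7.36, 7.28 and 6.90 in Cdx2 and FGF cultures, 3.16, 2.59 and 3.16 in motor neuron cultures, with 3.06, 8.83 and 10.49 in ES cells. The day 5 cultures did not overlap, but their difference missed the threshold in the fit over 9 arrays (4.21, SE 1.5, limma adjusted p = 0.0595), which shares its spread with the ES arrays. It passed without ES replicate 1 (limma adjusted p = 0.000162) or ES replicate 3 (limma adjusted p = 0.025). No p is given for the fit on the 6 day 5 arrays, where Col5a2 exceeded 4 in Cdx2 and FGF cultures alone and so had to differ to be tested. It was called at least 13.7-fold lower in motor neuron cultures than in ES cells (fitted difference -4.49, limma adjusted p = 0.0216; -3.77 with values under 4 raised to 4). That call was lost with no filter (limma adjusted p = 0.0835) and without any 1 of ES replicates 2 and 3 or of the 3 motor neuron arrays (limma adjusted p = 0.05 to 0.0783). Without ES replicate 1 that difference was -6.69, and Cdx2 and FGF cultures were then also called lower than ES cells (-2.48, limma adjusted p = 0.00165). Col11a1, a partner of type II collagen in fibrils, read 6.35, 6.09 and 6.15 in Cdx2 and FGF cultures, 3.90, 4.63 and 4.60 in motor neuron cultures, with 3.29, 2.81 and 4.63 in ES cells. Col11a1 was at least 3.45-fold higher in Cdx2 and FGF cultures than in motor neuron cultures (log2 difference 1.82, SE 0.44, limma adjusted p = 0.0112). That call was lost without motor neuron replicate 1 (1.58, limma adjusted p = 0.0522). It was at least 3.96-fold higher in Cdx2 and FGF cultures than in ES cells (limma adjusted p = 0.000459). Without ES replicate 3 it was also called higher in motor neuron cultures than in ES cells (1.33, limma adjusted p = 0.00273).

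**Figure D5:**
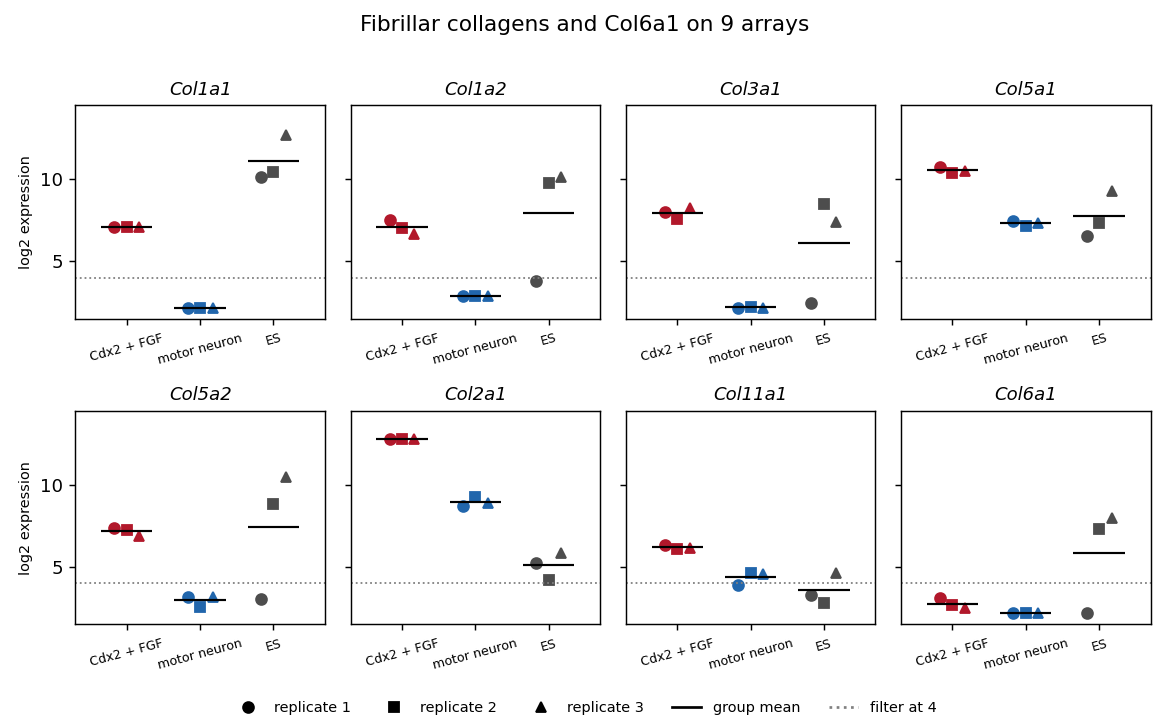
Log2 expression of 7 fibrillar collagen genes and Col6a1 on each array (circle, square and triangle for replicates 1 to 3), with Cdx2 and FGF cultures on the left of each panel, motor neuron cultures in the middle and ES cells on the right; bars are group means and the dotted line is the filter at 4. Cdx2 and FGF arrays lie above motor neuron arrays for all 7 fibrillar genes, and ES replicate 1 lies far below replicates 2 and 3 for Col1a2, Col3a1, Col5a2 and Col6a1.

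Markers of mesenchymal cells moved with the fibrillar collagens. Of 19 fibroblast markers with a probe set, 11 exceeded 4 on all 3 Cdx2 and FGF arrays, 2 on all motor neuron arrays and 8 on all ES arrays. Their summed level was 14.72 to 14.76 in Cdx2 and FGF cultures, 11.13 to 11.39 in motor neuron cultures and 12.65 to 14.93 in ES cells (log2 of the sum). In Cdx2 and FGF cultures the highest of them were Acta2 (13.37), Cald1 (12.81) and Tagln (12.8). Of 12 tested, 9 rose and 0 fell in Cdx2 and FGF cultures relative to motor neuron cultures, while 9 fell and 0 rose in motor neuron cultures relative to ES cells. Over all tested genes, 11.2% rose and 8.61% fell in the former comparison, and 25.9% rose and 30.7% fell in the latter. The other 8 markers of the list, Thy1, Dcn, Lum, Postn, S100a4, Fap, Prrx1 and Fbln2, exceeded 4 on no Cdx2 and FGF array. Of the tested markers, Prrx2 exceeded 4 in Cdx2 and FGF cultures alone and Thy1 in ES cells alone. Such genes had to differ to be tested. On the ES arrays, S100a4 read 2.17, 12.26 and 11.08, Prrx1 read 2.17, 10.51 and 6.11, and Thy1 read 5.96, 6.92 and 8.16. ES replicate 1 was thus at the floor for S100a4 and Prrx1, as it was near the floor for Col3a1. Other markers of the list differed: Dcn was highest on ES replicate 1, at 6.85, 2.17 and 4.41 on the ES arrays. Mmp2 (8.56, 8.17 and 9.10) and Twist1 (8.94, 9.92 and 8.36) were over 4 on each of them.

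Of 14 smooth muscle and mesoderm markers, 7 exceeded 4 on all Cdx2 and FGF arrays and 0 did so on all motor neuron arrays. All 7 that were tested were higher in Cdx2 and FGF cultures than in motor neuron cultures. Of these, Meox1 and Foxf1 exceeded 4 in Cdx2 and FGF cultures alone and so had to differ to be tested. The other 7, Tbx6, Hand1, Hand2, Tbx5, Myh11, Actg2 and Myocd, exceeded 4 on no Cdx2 and FGF array. The summed level was 14.86 to 14.98 in Cdx2 and FGF cultures, 6.19 to 8.68 in motor neuron cultures and 10.42 to 14.04 in ES cells. Acta2 and Tagln are on this list and on the fibroblast list, so the counts and sums of these lists are not separate results. The somite factor Meox1 read 10.74, 11.04 and 11.06 in Cdx2 and FGF cultures and 2.17 on every other array. The mesoderm factor Foxf1 read 8.52, 8.70 and 9.69 in Cdx2 and FGF cultures and at most 2.21 elsewhere. Endothelial markers exceeded 4 on all arrays of the group for 0 of 10 genes in both kinds of day 5 culture and for 3 in ES cells. Of 9 neural crest markers, 4 exceeded 4 on all Cdx2 and FGF arrays, 1 on all motor neuron arrays and 3 on all ES arrays. Their summed level was 10.97 to 11.35 in Cdx2 and FGF cultures, 9.84 to 10.83 in motor neuron cultures and 11.21 to 11.66 in ES cells. Of 4 tested, 3 rose and 0 fell in Cdx2 and FGF cultures relative to motor neuron cultures, with a median log2 difference of 2.94. Ets1 averaged 9.48 in Cdx2 and FGF cultures and 2.6 in motor neuron cultures, Snai2 8.05 and 3.71, Erbb3 5.31 and 3.77, and Sox9 10.26 and 10.38. The defining crest factor Sox10 read 2.78, 2.75 and 3.02 in Cdx2 and FGF cultures and 2.17 on every other array, and Foxd3 and Tfap2a were at 2.17 on all 6 day 5 arrays. Of 15 extraembryonic endoderm markers, 4 exceeded 4 on all Cdx2 and FGF arrays, 4 on all motor neuron arrays and 0 on all ES arrays. Their summed level was 11.89 to 12.11, 9.67 to 10.74 and 7.72 to 12.49 in that order. Of 7 tested, 2 rose and 1 fell in Cdx2 and FGF cultures relative to motor neuron cultures. Dab2 averaged 10.36 in Cdx2 and FGF cultures and 4.81 in motor neuron cultures, and Foxa2 11.3 and 9.34. Srgn averaged 6.71 and 8.8, and Gata6 3.34 and 4.78, in the same order. Gata4, Sox7 and Sox17 exceeded 4 on no array. The part of mesenchymal, mesodermal, neural crest, endothelial, extraembryonic endoderm and feeder cells in the matrix differences was not tested.

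Of 5 tested basement membrane and network collagens, Col18a1 was called between the day 5 cultures in the fit over 9 arrays, and Col4a1 and Col4a2 passed as well when the 6 day 5 arrays were fitted alone. Col18a1, a basement membrane collagen whose fragment is endostatin, read 12.24, 12.32 and 12.16 in Cdx2 and FGF cultures, against 10.60, 11.16 and 11.43 in motor neuron cultures. It was 2.26-fold higher (log2 difference 1.18, SE 0.24, limma adjusted p = 0.00502). That difference fell below the size for a call without motor neuron replicate 1 (0.95), with the mean of the probe sets (0.96) and on the probe sets outside the x_at and s_at kinds (0.75, limma adjusted p = 0.0531). Col4a1 and Col4a2, the chains of the common type IV collagen, start 21 bases apart on opposite strands of chromosome 8 (RefSeq, GRCm38.p6). Col4a1 read 11.81, 11.87 and 11.63 in Cdx2 and FGF cultures, 10.19, 10.63 and 11.40 in motor neuron cultures, with 10.21, 8.93 and 10.25 in ES cells. Col4a2 read 11.03, 10.92 and 10.87 in Cdx2 and FGF cultures, 9.0, 9.54 and 10.38 in motor neuron cultures, with 9.21, 8.42 and 10.38 in ES cells. For both genes, the Cdx2 and FGF arrays lay above all 6 others, and motor neuron replicate 3 was the highest of its group.

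The differences of Cdx2 and FGF cultures from motor neuron cultures were 1.03 for Col4a1 (SE 0.39, limma adjusted p = 0.0709) and 1.30 for Col4a2 (SE 0.48, limma adjusted p = 0.0653), and missed the threshold. Both passed on the 6 day 5 arrays alone (limma adjusted p = 0.0148 and 0.00915), without ES replicate 2 (limma adjusted p = 0.0187 and 0.0313) and without motor neuron replicate 3 (limma adjusted p = 0.0323 and 0.0379). Col4a2 also passed without ES replicate 3 (limma adjusted p = 0.0185). Col4a1 was called higher in motor neuron cultures than in ES cells without ES replicate 1 or 3 or motor neuron replicate 1 (1.15, 1.17 and 1.22) and missed with all arrays (0.94, limma adjusted p = 0.0501). Against ES cells, Cdx2 and FGF cultures were 3.92-fold higher for Col4a1 (limma adjusted p = 0.00127) and 3.04-fold higher for Col4a2 (limma adjusted p = 0.0128, or 0.0535 with no filter on low values). Col4a5 read 9.27, 8.97 and 9.51 in Cdx2 and FGF cultures, 8.76, 8.60 and 8.87 in motor neuron cultures, with 4.57, 8.64 and 6.88 in ES cells. It was called higher in motor neuron cultures than in ES cells (2.04, limma adjusted p = 0.0425), although the groups overlapped. With no filter, another quantile normalization, no intensity trend, the mean of the probe sets or the 6 arrays compared alone, that call was lost (limma adjusted p = 0.0542 to 0.126). Leaving out any 1 of the 9 arrays other than ES replicate 2 lost that call, with ES replicate 1 moving it most (0.98, limma adjusted p = 0.0853), and without ES replicate 2 it was 3.01. In Cdx2 and FGF cultures Col4a5 was 5.87-fold higher than in ES cells (limma adjusted p = 0.017, or 0.068 with no filter), with a log2 difference of 2.55. That difference was 1.49 without ES replicate 1 and 3.53 without ES replicate 2, and it missed the threshold without Cdx2 and FGF replicate 3 (limma adjusted p = 0.0526).

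Col8a1, a short-chain network collagen, read 5.59, 5.43 and 4.07 in Cdx2 and FGF cultures, 2.17 on each motor neuron array and 2.17, 8.96 and 7.41 in ES cells. Cdx2 and FGF cultures lay above motor neuron cultures without a call (2.86, SE 1.40, limma adjusted p = 0.157), and the difference passed without ES replicate 1 (limma adjusted p = 0.00286). No p is given for the fit on the 6 day 5 arrays, where Col8a1 exceeded 4 in Cdx2 and FGF cultures alone and so had to differ to be tested. It was called at least 6.92-fold lower in motor neuron cultures than in ES cells (fitted difference -4.01, limma adjusted p = 0.026; -2.79 with values under 4 raised to 4). That call was lost with no filter (limma adjusted p = 0.0939), with array weights (limma adjusted p = 0.0574) and without any 1 of ES replicates 2 and 3 or of the motor neuron arrays (limma adjusted p = 0.062 to 0.0961). Without ES replicate 1 the difference was -6.02, and Cdx2 and FGF cultures were then also called lower than ES cells (-3.16, limma adjusted p = 0.00111). ES replicate 1 was at the floor and the other ES arrays were high. The other 7 genes of this family, among them Col4a6, exceeded 4 on no array.

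Of 14 collagens of other kinds, 3 were tested. Col26a1 read 9.91, 9.32 and 9.56 in Cdx2 and FGF cultures, 7.37, 6.45 and 4.31 in motor neuron cultures, with 5.41, 5.86 and 3.85 in ES cells. It was 11.8-fold higher in Cdx2 and FGF cultures than in motor neuron cultures (log2 difference 3.55, SE 0.75, limma adjusted p = 0.00585). Without motor neuron replicate 1 that difference was 4.22, and without replicate 3, the lowest, it was 2.69. It was at least 22.8-fold higher in Cdx2 and FGF cultures than in ES cells (log2 difference 4.56, limma adjusted p = 0.000418), with 3.96 without ES replicate 3. Without motor neuron replicate 3 it was also called higher in motor neuron cultures than in ES cells (1.87, limma adjusted p = 0.0207). Col22a1, a fibril-associated collagen of tissue junctions, read 6.96, 7.30 and 7.46 in Cdx2 and FGF cultures, against 8.83, 9.31 and 8.76 in motor neuron cultures. ES cells read 6.60, 8.32 and 7.74. Col22a1 was 3.31-fold lower in Cdx2 and FGF cultures than in motor neuron cultures (log2 difference -1.73, SE 0.41, limma adjusted p = 0.0101). Another Col22a1 probe set, which is not of the s_at kind and lay close to 4, gave 0.22 (limma adjusted p = 0.778), so the fall rests on 1 probe set. The mean of the probe sets gave -0.80 (limma adjusted p = 0.0866). In motor neuron cultures Col22a1 was 2.66-fold higher than in ES cells (limma adjusted p = 0.0105), and that difference was under the size for a call without ES replicate 1 (0.93), with the mean of the probe sets (0.83) and on the probe set outside the s_at kind (0.79). Col9a3, a chain of the fibril-associated type IX collagen, was under 4 on every day 5 array and read 5.49, 8.39 and 6.25 in ES cells. It was at least 6.54-fold lower in each kind of day 5 culture. The fitted difference was -4.04 for Cdx2 and FGF cultures and -4.06 for motor neuron cultures. Without ES replicate 1 or 2 it was -4.65 or -3.20 for Cdx2 and FGF cultures and -4.67 or -3.22 for motor neuron cultures. Another Col9a3 probe set exceeded 4 on ES replicate 2 alone, at 5.63, and a further one on no array.

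Beaded filament collagens were not detected over 4 on any day 5 array. Of the 5 genes, Col6a1 read 2.23, 7.29 and 8.00 in ES cells, Col6a2 read 2.17, 4.39 and 4.98, and Col6a3 read 2.17, 7.74 and 4.94. These 3 were over 4 on ES replicates 2 and 3 alone and so were not tested. In all, 9 untested members exceeded 4 on 1 or 2 arrays, and all 9 did so on ES arrays only, with 2 on ES replicate 1, 4 on ES replicate 2 and 7 on ES replicate 3. The collagen receptor subunit Itga1 was among them, at 7.31, 3.44 and 6.19, so that ES replicate 1 was not the lowest array for each of these genes.

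Genes that build, bind or cut the matrix were counted beside the members, from 6 lists. In Cdx2 and FGF cultures against motor neuron cultures, genes of collagen biosynthesis and cross-linking were higher in 13 of 21 tested and lower in 0, with a median log2 difference of 1.64. The prolyl hydroxylase gene P3h2 read 10.95, 10.66 and 10.75 in Cdx2 and FGF cultures, against 2.17, 2.60 and 3.18 in motor neuron cultures, at least 111-fold higher. P3h2 read 3.18 on each ES array, and no p is given because the Cdx2 and FGF arrays alone brought it into the test. P4ha3, also counted as higher, was brought into the test by these arrays alone as well. P4ha2, another prolyl hydroxylase subunit, was 14.2-fold higher (limma adjusted p = 0.00185) and Crtap, a partner of prolyl hydroxylation, 9.82-fold (limma adjusted p = 0.0011). Basement membrane partners were higher in 11 of 13 tested and lower in 1, with a median of 3.40. The nidogens, which link laminin to type IV collagen, were among them, with Nid2 29.3-fold higher (limma adjusted p = 1.41e-05) and Nid1 at least 21.7-fold higher (limma adjusted p = 7.76e-06). Smoc1 was at least 21.3-fold higher (limma adjusted p = 6.59e-07), and Ntn4, a netrin, was 4.16-fold lower (limma adjusted p = 9.25e-05). Smoc2, Frem1 and Fras1, also counted as higher, exceeded 4 in Cdx2 and FGF cultures alone and so had to differ to be tested. The counts and medians of the lists include such genes.

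Other matrix glycoproteins and proteoglycans were higher in 6 of 17 tested and lower in 2 in Cdx2 and FGF cultures, with a median of 0.93. Tgfbi, which binds collagen and integrins, read 10.37, 10.01 and 10.14 in Cdx2 and FGF cultures, against 2.17, 2.26 and 2.20 in motor neuron cultures, at least 72.2-fold higher (limma adjusted p = 2.06e-05). Efemp1 was 17.8-fold higher (limma adjusted p = 0.00119) and Thbs1 at least 18.3-fold higher (limma adjusted p = 0.0471). Ncan, a proteoglycan of nervous tissue, read 7.00, 6.52 and 6.79 in Cdx2 and FGF cultures, against 11.64, 11.58 and 11.23 in motor neuron cultures, 26.2-fold lower (limma adjusted p = 6.46e-07). Nell2, secreted by neurons, was 5.96-fold lower (limma adjusted p = 0.0014). Matrix proteases and their inhibitors were higher in 9 of 17 tested and lower in 1 (Mmp24, 2.20-fold, limma adjusted p = 0.014), with a median of 1.26. Mmp2, a gelatinase that is also on the fibroblast list, read 10.04, 10.11 and 9.72 in Cdx2 and FGF cultures, against 2.17 on each motor neuron array, at least 62.0-fold higher (limma adjusted p = 1.1e-07). Adamts9 was at least 19.6-fold higher (limma adjusted p = 1.49e-06) and Adamts1 13.3-fold (limma adjusted p = 0.00174). Timp4, also counted as higher, exceeded 4 in Cdx2 and FGF cultures alone and so had to differ to be tested.

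Adaptor and focal adhesion genes were higher in 6 of 23 tested and lower in 2 in Cdx2 and FGF cultures, with a median of 0.43. The tensins, which tie integrins to actin, parted: Tns3 was 22.0-fold higher (limma adjusted p = 8.6e-06) and Tns1 was 21.3-fold lower (limma adjusted p = 7.6e-05). Tns3 read 12.49, 12.48 and 12.59 in Cdx2 and FGF cultures, against 7.40, 8.21 and 8.57 in motor neuron cultures, while Tns1 read 5.26, 4.23 and 4.39 against 8.81, 9.25 and 9.06. The alpha-actinins Actn4 and Actn1 were 5.14-fold and 3.96-fold higher (limma adjusted p = 6.5e-05 and 3.13e-05), and the parvin Parvb was 8.34-fold lower (limma adjusted p = 0.000501). Matrix receptors other than integrins were higher in 3 of 12 tested and lower in 1, with a median of 0.35. Cd44, the hyaluronan receptor, was at least 25.4-fold higher (limma adjusted p = 0.00328), the syndecans Sdc2 and Sdc4 were 5.82-fold and 4.87-fold higher (limma adjusted p = 5.98e-05 and 1.91e-05), and the tetraspanin Cd9 was 4.56-fold lower (limma adjusted p = 0.000916).

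In motor neuron cultures against ES cells, each list held genes called in both directions. Over all tested genes, 25.9% were higher and 30.7% lower. Collagen biosynthesis genes were higher in 5 and lower in 6 of 21 tested, close to those shares. The collagen chaperone Serpinh1 was 8.29-fold higher (limma adjusted p = 7.2e-08) and Pcolce, an enhancer of procollagen cleavage, at least 279-fold lower (limma adjusted p = 1.28e-08). Basement membrane partners were higher in 2 and lower in 5 of 13. Nid1 read 12.66, 13.13 and 12.20 in ES cells and was at least 271-fold lower in motor neuron cultures (limma adjusted p = 2.68e-08), and 12.5-fold lower in Cdx2 and FGF cultures (limma adjusted p = 6.32e-06). Other matrix glycoproteins were higher in 7 and lower in 9 of 17, non-integrin receptors higher in 2 and lower in 3 of 12, adaptors higher in 9 and lower in 6 of 23, and proteases and inhibitors higher in 5 and lower in 7 of 17. In Cdx2 and FGF cultures against ES cells, 25.4% of all tested genes were higher and 27.2% lower. There, collagen biosynthesis genes were higher in 12 and lower in 3, basement membrane partners higher in 7 and lower in 2, and other glycoproteins higher in 8 and lower in 4. Non-integrin receptors were higher in 3 and lower in 2, adaptors higher in 6 and lower in 3, and proteases and inhibitors higher in 9 and lower in 4. The list medians in that comparison were 0.18 to 2.01, and the shares called of all genes are those given above. The lists also hold genes over 4 in a single group, such as Acan and Ptk2b in ES cells. These had to differ to be tested, and the counts and medians include them.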

How the data were processed

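Per the labels' protocols, a NuGEN Ovation kit amplified the RNA, which was read on 9 Affymetrix mouse arrays, 3 in each group. The deposited table gave 1 log2 level for each probe set and array, and the submitters' processing notes name GCRMA and limma. Versions, options and the genome build are not given in the sources used here. That the scale is log2 was judged from the range, a floor of 2.165 up to 16.12. Values were used without further normalization. Probe sets took gene names from GEO's platform annotation: 34958 had 1 symbol, 932 several and 9211 none, and the 13 control probe sets with a symbol were left out.

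A gene was its probe set with the highest mean, tested if over 4 on at least 3 arrays. Group means were fitted over all 9 arrays in limma 3.58.1 (R 4.3.3) by lmFit and trended eBayes, with 6 residual degrees of freedom, with Benjamini-Hochberg adjustment over all genes tested. A call needed an adjusted p under 0.05 together with a log2 difference of 1 or more in size. The fit was tested on simulated data. SE are the fit's and SD are over a group's 3 arrays. Folds whose dimmer group had an array under 4 were computed with such values set to 4 and are given as at least that size. The members, the gene lists and the marker lists were chosen with earlier results of these data known. By rule, values on each array are given, in each family and comparison, for up to 4 called members in each direction with the largest differences after values under 4 were raised to 4, for every Fn1 probe set and for members whose probe sets were called in opposite directions. Up to 3 called genes of a pathway list are named in each direction by the same rank. Col6a1, Col6a2, Col6a3, Itga1 and the marker genes given by array were chosen after their values were seen. Alternatives were other normalization, filters, variance priors, probe set rules, array weights, arrays in the fit, a replicate block and leaving out each array.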

Additional observations from a re-analysis of the deposited data

How the results depend on the processing

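Counts of called members changed little with most settings. Taking each probe set by itself raised the counts to 38 higher in Cdx2 and FGF cultures against motor neuron cultures, 12 higher and 30 lower in motor neuron cultures against ES cells, and 28 higher in Cdx2 and FGF cultures against ES cells, since 64 probe sets were tested. The count lower in Cdx2 and FGF cultures against motor neuron cultures was 1 with the mean of all probe sets and 1 without x_at or s_at probe sets. Leaving out 1 array gave 16 to 21 higher and 1 to 3 lower in Cdx2 and FGF cultures against motor neuron cultures, the 1 being without Cdx2 and FGF replicate 2. It gave 5 to 8 higher and 15 to 18 lower in motor neuron cultures against ES cells, and 12 to 14 higher and 5 to 9 lower in Cdx2 and FGF cultures against ES cells, where the 9 came without ES replicate 1. Directions reversed for Col22a1 between the day 5 cultures without x_at or s_at probe sets (0.22), for Itgav against ES cells with the mean of all probe sets (2.10 for Cdx2 and FGF cultures, 0.72 for motor neuron cultures), for Itga6 with that mean (1.02 in Cdx2 and FGF cultures against ES cells), and for Itga5 without x_at or s_at probe sets (4.29 in the same comparison). The cause was not tested. Centring arrays on their median moved the median of all genes in motor neuron cultures against ES cells to 0.09, from -0.08, and in Cdx2 and FGF cultures against ES cells to 0.10, from -0.004. Called genes there were 50.6% higher with centring and 45.8% without it in motor neuron cultures against ES cells. With the replicate number as a block, 20 members were higher and 2 lower between the day 5 cultures, Col4a2 being the added call (limma adjusted p = 0.0405). The block left the other counts at 6 higher and 18 lower, and at 13 higher and 6 lower. Arrays of the same number in the day 5 cultures deviated together at r = 0.06, 0.077 and 0.043, so the numbers were not taken as pairs. Probe sets near the floor of 2.165 limit what a low level can show.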
